A study of Mus musculus with 8 samples.

Results

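The mitochondrially encoded genes are the 37 genes of the mouse mitochondrial chromosome, and they were taken as every row of the expression table whose symbol begins with mt-. They made up 37 of 49585 gene identifiers, as 13 protein genes, 2 ribosomal RNA (rRNA) genes and 22 transfer RNA (tRNA) genes. The study sequenced RNA from the intestine of 8 C57BL/6 mice, 4 named as Klebsiella recipients and 4 as Lactobacillus recipients, with 1 library from each mouse. The labels state no age, sex, bacterial strain, dose, intestinal segment or untreated control, and all 8 mice were recipients of bacteria. Libraries are named by group and mouse number, and every p-value rests on the spread between mice. In whole tissue, fewer cells of a type and less RNA per cell cannot be told apart.

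Mitochondria keep a small circular genome that is transcribed from both of its strands into long precursors. Enzymes cut the precursors at the tRNAs, which stand between most of the other genes, and so release mRNAs and rRNAs. The heavy strand is the template for nearly all of the protein genes and for both rRNAs, while mt-Nd6 is the only protein gene read from the light strand. All of the proteins are subunits of respiratory complexes I, III, IV and V, whose other subunits are encoded in the nucleus.

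The libraries held between 40455910 and 55447220 reads after the authors' filter, and 95.04% to 96.59% of reads mapped. The values are FPKM, fragments scaled by gene length and by the fragments of the library, and the whole fragments behind them could be recovered (15783925 to 21603065 per library). In every library FPKM was high for epithelial Krt8 (1857 to 2928 FPKM), for goblet cell mucin Muc2 (1159 to 4305 FPKM) and for smooth muscle Acta2 (265 to 636 FPKM). Markers of 11 cell types were summed, and the only list whose groups did not overlap was that of adipocytes, at 2.39 to 21.9 FPKM in Klebsiella and 27.9 to 263 FPKM in Lactobacillus libraries. Over the 8 libraries the adipocyte sum and the mitochondrial mRNA level, both on the log2 scale, had Pearson r of 0.142 (exact permutation p = 0.743) and Spearman rho of 0.381 (exact permutation p = 0.36).

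The first question was what share of the fragments behind FPKM was mitochondrial. Those fragments were 83.3% to 87.9% of uniquely mapped first reads, so the share is not that of the whole library. It also depends on how reads with several mapping places were counted, which is not given. The mitochondrial genes took 4.53%, 3.93%, 4.45% and 3.75% of fragments in Klebsiella libraries 1 to 4. In Lactobacillus libraries 1 to 4 they took 3.12%, 4.77%, 5.26% and 5.09%. Lactobacillus 1 was the lowest of all 8 libraries and the other Lactobacillus libraries were the highest, so the groups overlapped. The largest 95% Wilson half-width of a library's share was 0.0103 percentage points, which covers counting error only. The means were 4.17% ± 0.381 (SD, n = 4) and 4.56% ± 0.981 (SD, n = 4), a difference of -0.39 points, with a two-sided exact permutation p of 0.486. With each library left out in turn the difference ran from -0.874 points, without Lactobacillus 1, to -0.161 points. Without Lactobacillus 1 the exact permutation p was 0.0286, the smallest that 4 against 3 libraries allow. That library stands out by its value in this same measure, so this unadjusted p is no test of the groups. As a share of summed FPKM, the genes ranged from 3.44% to 5.74% (exact permutation p = 0.657).

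Most mitochondrial fragments came from few genes. The protein genes held 92.5% to 97.0% of mitochondrial fragments, the rRNA genes 2.83% to 7.26% and the tRNA genes 0.154% to 0.302%. By strand, 28 genes are transcribed from the heavy strand and 9 from the light strand. The light strand genes held 0.551% to 0.965% of mitochondrial fragments, and 4.29% to 7.03% of mitochondrial FPKM, which weighs short genes more. Whether counting used the strand of reads is not given, so strand here is that of the annotated gene and not of the RNA. mt-Co1 alone held 49.4% to 55.4% of mitochondrial fragments.

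Of the 37 genes, 16 were above 0 in all 8 libraries, namely the 13 protein genes, both rRNAs and the tRNA gene mt-Tp. mt-Co1, the catalytic subunit of cytochrome c oxidase (complex IV), had the highest mean FPKM of all genes in the table. It stood at 15520, 12819, 14960 and 12534 FPKM in Klebsiella libraries 1 to 4. In the Lactobacillus libraries mt-Co1 stood at 9981, 17094, 17811 and 17374 FPKM. The Klebsiella values lay between those of Lactobacillus 1 and of the other 3 Lactobacillus libraries.

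mt-Cytb, the cytochrome b subunit of complex III, came next with a median of 6905 FPKM and ranked 3 of all genes by mean. The Klebsiella libraries 1 to 4 held 7775, 5775, 6760 and 5673 FPKM of it. The Lactobacillus libraries 1 to 4 held 5178, 7049, 8996 and 7231 FPKM. The groups overlapped again, with the lowest and the highest value both among Lactobacillus libraries.

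Among complex I subunits, which carry electrons from NADH, mt-Nd1 had a median of 3957 FPKM (2795 to 4472). mt-Nd4 had 2084 FPKM (1530 to 2717) and mt-Nd2 had 1924 FPKM (1416 to 2235). The FPKM order mt-Co1, mt-Cytb, mt-Nd1, mt-Nd4, mt-Nd2 was the same in each of the 8 libraries. mt-Nd4 exceeded mt-Nd2 by the smallest margin, at 1.01 to 1.22 times its FPKM. These 5 mRNAs of the heavy strand varied together: all 5 were lowest in Lactobacillus 1 and highest in Lactobacillus 3, and each spanned 1.58-fold to 1.79-fold between the extremes. Across the 8 libraries their 10 pairs had Pearson r of 0.838 to 0.966 and Spearman rho of 0.833 to 1 on log2(FPKM + 0.5). In exact permutation tests adjusted over all 120 pairs of the 16 genes, 10 of these 10 pairs passed by Pearson (adjusted p of at most 0.0284) and 6 by Spearman. Without the 2 libraries farthest from the median, r was 0.755 to 0.932. The values share a library scaling, and groups of 4 are too small for a correlation of their own.

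Lower in the order, some neighbours were not separated. mt-Tp had a median of 1229 FPKM and mt-Rnr2 1031 FPKM, with mt-Tp above in 6 of 8 libraries. By fragments mt-Tp was far lower, with 1233 to 2934 per library against 13061 to 38526 for mt-Rnr2. FPKM divides by gene length and mt-Tp is shorter than a read, so its place in the FPKM order is uncertain as a level. mt-Rnr2 and mt-Nd5 (911 FPKM) each led in 4 of 8 libraries. mt-Rnr1 (758 FPKM) was under mt-Nd5 in 6 of 8 libraries, and mt-Nd6 (484 FPKM) was under mt-Rnr1 in all 8.

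**Figure D1:**
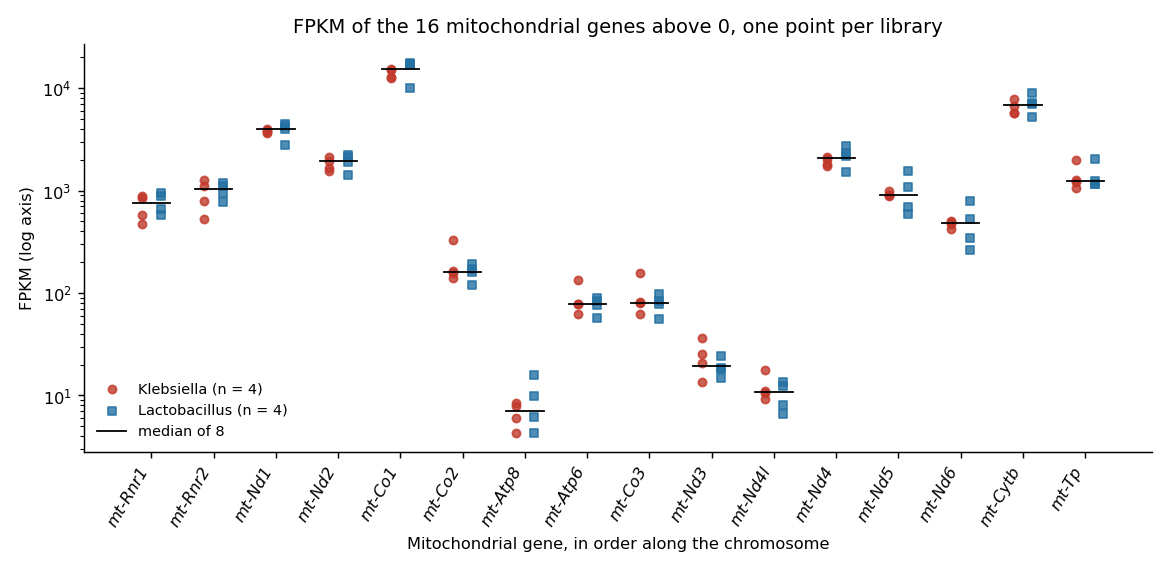
FPKM on a log axis for the 16 mitochondrial genes above 0, in order along the chromosome, with 1 point per library (circles Klebsiella, squares Lactobacillus) and a line at the median of the 8. mt-Co1 is highest at 9981 to 17811 FPKM, and the stretch from mt-Co2 to mt-Nd4l is low in both groups.

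Another 6 protein genes were far lower, and they lie next to each other from mt-Co2 to mt-Nd4l. They make up 26.3% of the summed length of the 13 protein genes but held only 0.466% to 1.22% of mitochondrial fragments. mt-Co2 and mt-Co3, which form the core of complex IV with mt-Co1, had medians of 162 and 80.8 FPKM. mt-Co1 was thus 38.3 to 108 times mt-Co2 and 79.7 to 229 times mt-Co3 in FPKM. For ATP synthase (complex V), mt-Atp6 had a median of 78.8 FPKM and mt-Atp8 of 7.03 FPKM. The complex I subunits mt-Nd3 and mt-Nd4l had medians of 19.5 and 10.7 FPKM, and mt-Nd4 was 97.7 to 286 times the FPKM of its neighbour mt-Nd4l. mt-Co3 exceeded mt-Atp6 in only 5 of 8 libraries.

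A nuclear copy was found for 5 of these 6 genes in the GENCODE M21 transcripts (GRCm38). The unprocessed pseudogenes Gm28661, Gm10925, Gm28437, Gm28438 and Gm10222 were 99.71% to 100% identical to mt-Co2, mt-Atp6, mt-Co3, mt-Nd3 and mt-Nd4l over at least 99.0% of each gene. With Gm29216, which copies 483 of the 1545 bases of mt-Co1, and Gm28439, which copies 876 of the 1378 bases of mt-Nd4, they form 7 copies in 1 segment, chr1:24611535-24616197, on the minus strand. The sequences are shown because they decide whether a read of the stretch can be assigned to the mitochondrion. The first 120 bases of mt-Nd4l (chrM:9877-9996, plus strand) and of Gm10222 (chr1:24612581-24612700, minus strand) had 0 differences.
mt-Nd4l: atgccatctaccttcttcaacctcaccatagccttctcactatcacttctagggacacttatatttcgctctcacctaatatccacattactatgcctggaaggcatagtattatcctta
Gm10222: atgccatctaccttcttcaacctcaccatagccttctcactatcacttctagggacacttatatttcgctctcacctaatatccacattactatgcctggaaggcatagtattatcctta
In the first 120 bases of mt-Nd3 (chrM:9459-9578) and of Gm28438 (chr1:24613000-24613119) the single difference is in capitals. It is T3C, counted from 1 at the first base of the gene, with the mitochondrial base first.
mt-Nd3: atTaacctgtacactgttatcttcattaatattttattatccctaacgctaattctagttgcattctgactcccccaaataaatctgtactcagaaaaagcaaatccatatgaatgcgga
Gm28438: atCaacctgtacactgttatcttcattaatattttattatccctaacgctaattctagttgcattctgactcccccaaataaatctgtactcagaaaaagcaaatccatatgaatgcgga
The high gene mt-Cytb had only a diverged copy, Gm11410 on chromosome 4, at 92.9% identity. Its bases 2 to 121 (chrM:14146-14265, and chr4:80003990-80004109 for the copy) differ at 7 bases, in capitals.
mt-Cytb: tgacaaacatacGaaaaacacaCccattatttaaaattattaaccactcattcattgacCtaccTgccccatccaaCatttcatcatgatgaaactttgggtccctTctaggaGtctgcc
Gm11410: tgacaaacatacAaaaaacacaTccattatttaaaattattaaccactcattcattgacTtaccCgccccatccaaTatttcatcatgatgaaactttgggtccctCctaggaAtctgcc

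The share of each gene that was copied without change was compared with its level. Reads were 150 bases long. Every stretch of 150 bases in each gene was looked for in the transcripts of the copies found by sequence search and listed in the expression table. In the 5 low genes with a near-identical copy, 97.0% to 99.8% of stretches were held unchanged elsewhere, and their mean FPKM was 11.1 to 180. In 7 genes (mt-Rnr1, mt-Rnr2, mt-Nd1, mt-Nd2, mt-Nd5, mt-Nd6 and mt-Cytb) 0% were held, and their mean FPKM was 478 to 6805. mt-Co1, with 23.6% held, had a higher mean than any of them (14762 FPKM), and mt-Nd4, with 59.2% held, lay within their range (2061 FPKM). So the genes copied nearly whole were low, but a copy of part of a gene did not go with a low level. mt-Atp8 was low at a mean of 7.87 FPKM although 0% of its stretches were held in those transcripts. It lies between mt-Co2 and mt-Atp6, and overlaps mt-Atp6 by 43 bases. The copies of those neighbours are 233 bases apart, against 230 bases for the genes, and the last 3 bases of mt-Co2 are outside its copy. What the nuclear genome holds in that gap was not analysed here. mt-Atp8 rested on 14 to 70 fragments per library, the fewest of the 16 genes.

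**Figure D2:**
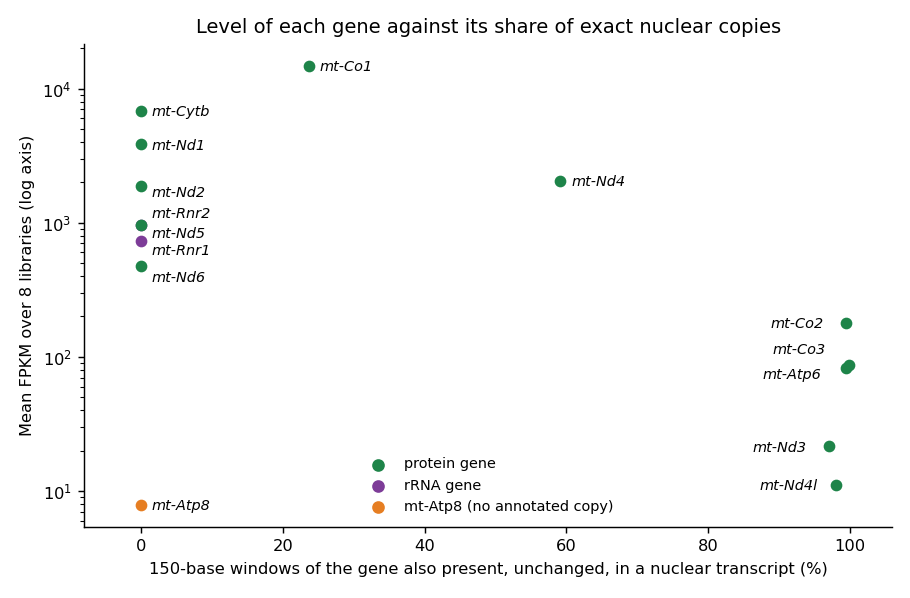
Mean FPKM over the 8 libraries (log axis) against the percent of 150-base stretches of each gene found unchanged in a transcript of the listed copies, with 1 point per gene (2 rRNA and 13 protein genes). The 5 genes at 97.0% to 99.8% lie under 200 FPKM, those at 0% lie above 400 FPKM except mt-Atp8.

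The copies of the 5 low genes were listed at levels whose ranges over the 8 libraries overlapped those of the genes. Within libraries, mt-Co2 was above its copy in every library, while mt-Nd3 and mt-Atp6 were below theirs in every library. mt-Co3 and mt-Nd4l were above their copies in some libraries and below in others. Gm28661 was at 56.5 to 177 FPKM and mt-Co2 at 121 to 328 FPKM, while Gm10222 was at 6.03 to 19.4 FPKM and mt-Nd4l at 6.52 to 17.7 FPKM. Gm28438, at 28.2 to 74.8 FPKM, was the copy of mt-Nd3, which was at 13.5 to 36.8 FPKM. The sum of the 5 genes was 0.860 to 1.20 times the sum of the 5 copies. The partial copies were far under their genes: Gm29216 was at 56.1 to 182 FPKM and Gm28439 at 9.34 to 30.9 FPKM. A read within an identical stretch cannot be told apart by its sequence. The sources used here do not give how reads with several mapping places were counted. The FPKM of mt-Co2, mt-Atp6, mt-Co3, mt-Nd3 and mt-Nd4l, and part of mt-Co1 and mt-Nd4, is therefore uncertain as a level of mitochondrial RNA.

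Klebsiella 4 stood apart in these 5 genes. Their summed FPKM was 1.09%, 1.08%, 1.16% and 2.59% of that of the 6 high heavy strand protein genes (mt-Nd1, mt-Nd2, mt-Co1, mt-Nd4, mt-Nd5 and mt-Cytb) in Klebsiella libraries 1 to 4. In the Lactobacillus libraries it was 1.18%, 1.27%, 0.976% and 0.996%. The 5 copies showed the same library apart, at 3.01% in Klebsiella 4 against 0.872% to 1.09% in the other 7 libraries. mt-Co2, for example, was at 163, 141, 158 and 328 FPKM in Klebsiella and at 121, 193, 172 and 161 FPKM in Lactobacillus libraries. Klebsiella 4 also had the lowest base quality, with 90.65% of bases at quality 30 or above against 94.03% to 94.57% in the others. It was the highest library for the plasma cell markers (12301 FPKM). For the markers of smooth muscle (1026 FPKM), fibroblasts (576 FPKM) and enteric neurons and glia (23.5 FPKM) it was the lowest. In the other cell type lists it was at neither end. The part of base quality or of cell make-up in this result was not tested. mt-Atp8, which lies in the same stretch but is in neither sum, did not stand apart there, at 0.0326% of the 6 high genes against 0.0134% to 0.0426% in the other libraries. The 6 high genes of Klebsiella 4 summed to 26012 FPKM, within the range of the other libraries (21488 to 37327 FPKM).

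**Figure D3:**
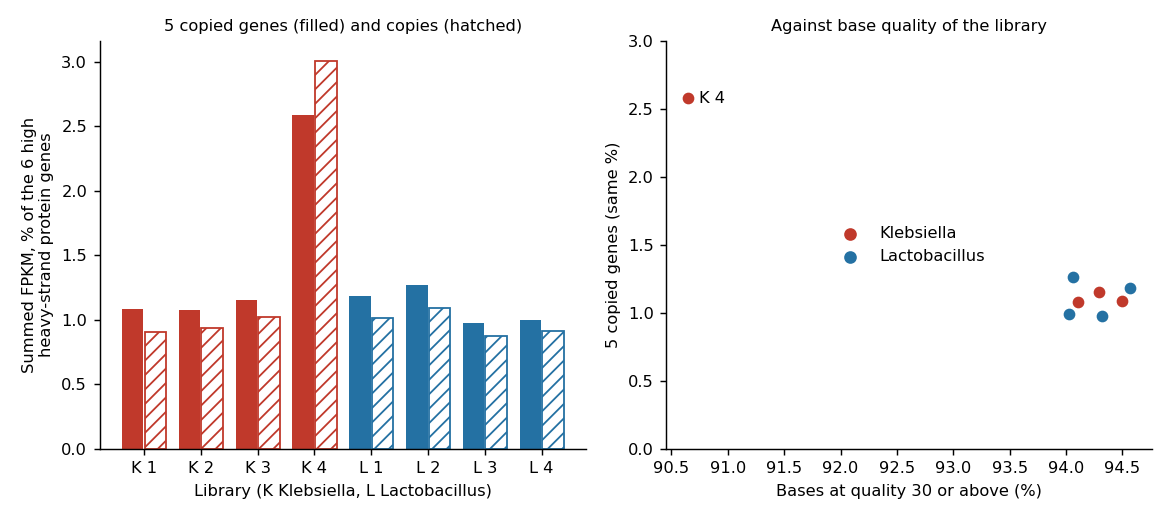
Left, summed FPKM of the 5 copied genes (filled bars) and of their 5 nuclear copies (hatched bars) as a percent of the 6 high heavy strand protein genes (without mt-Atp8), per library, from 0; right, the filled values against the percent of bases at quality 30 or above, with 1 point per library. Klebsiella 4 (K 4) is at 2.59% and 3.01% with 90.65% of bases, and the other 7 libraries lie at 0.872% to 1.27%.

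mt-Nd6, the light strand mRNA and a complex I subunit, followed mt-Nd5, the complex I subunit on the opposite strand whose end it overlaps by 14 bases. mt-Nd5 was at 908.9, 913, 997 and 891 FPKM in Klebsiella libraries 1 to 4 and at 588, 686, 1096 and 1557 FPKM in Lactobacillus libraries 1 to 4. mt-Nd6 was at 421, 500, 492 and 476 FPKM in the first group and at 265, 347, 527 and 796 FPKM in the second. Both were lowest in Lactobacillus 1 and highest in Lactobacillus 4, and in both the Klebsiella values fell inside the Lactobacillus range. mt-Nd6 spanned 3.01-fold and mt-Nd5 2.65-fold over the libraries, but the ratio of mt-Nd6 to mt-Nd5 stayed between 0.450 and 0.547. Pearson r between them was 0.981 (exact permutation p = 0.000198, adjusted p = 0.00468 over the 120 pairs) and Spearman rho was 0.952 (exact p = 0.00114, adjusted p = 0.0268). Without Lactobacillus 4 and Lactobacillus 1, r was 0.918 (exact permutation p = 0.0111). The sources used here do not give whether counting used the strand of reads. Without strand, the reads of overlapping ends cannot be told apart. RNA of the opposite strand over any part of mt-Nd6 would then also be counted to it.

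Both genes were then set against the rest of the heavy strand. mt-Nd5 was 9.73% of mt-Cytb in Lactobacillus 2 and 21.5% in Lactobacillus 4. mt-Nd6 was 1.29%, 1.85%, 1.58% and 1.78% of the summed FPKM of the other 12 protein genes in Klebsiella libraries 1 to 4. In Lactobacillus libraries 1 to 4 it was 1.22%, 1.04%, 1.40% and 2.26%. The log2 ratio differed by 0.19 between the groups (exact permutation p = 0.514), with the groups overlapping. Leaving out 1 library moved it from 0.0378 (without Lactobacillus 2) to 0.411 (without Lactobacillus 4, exact permutation p = 0.0857). As these are the extremes of all leave-outs, that p is no test of the groups. None of the 10 pairs of mt-Nd5 or mt-Nd6 with the 5 higher heavy strand mRNAs passed by Pearson after adjustment (r 0.436 to 0.748, adjusted p at least 0.23 in exact permutation tests). Whether these r differ from those among the 5 mRNAs was not tested.

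The rRNAs of the mitochondrial ribosome had no passing correlation with the 5 higher mRNAs over the 8 libraries. mt-Rnr1, the 12S rRNA, was at 473, 892, 849 and 575 FPKM in Klebsiella and at 667, 883, 583 and 957 FPKM in Lactobacillus libraries. mt-Rnr2, the 16S rRNA, was at 523, 1268, 1106 and 796 FPKM in Klebsiella and at 956, 1113, 775 and 1174 FPKM in Lactobacillus libraries. Klebsiella 1 had the lowest level of both, although its mRNA level was within the range of the other libraries. The 2 rRNAs went together (Pearson r = 0.958, exact permutation p = 0.000372, adjusted p = 0.00506; Spearman rho = 0.952, exact p = 0.00114, adjusted p = 0.0268), also without Klebsiella 1 and Klebsiella 4 (r = 0.947, exact permutation p = 0.00972). Their ratio, 16S over 12S, was 1.11 to 1.43. With the 5 higher mRNAs the rRNAs had r of -0.368 to 0.146, and 0 of 10 pairs passed by either coefficient. Without the 2 libraries farthest from the median of each rRNA, r was -0.23 to 0.602. For mt-Rnr2 alone, without Klebsiella 1 and Lactobacillus 3, r was 0.462 to 0.602, so its low r depended on those libraries. These values do not show that rRNAs and mRNAs varied independently. Together the rRNAs were 3.00%, 7.84%, 6.19% and 5.04% of the summed mRNA FPKM in Klebsiella libraries 1 to 4. The same share was 7.38%, 5.93%, 3.55% and 5.92% in Lactobacillus libraries 1 to 4. The lowest and the highest share were both in Klebsiella libraries. The sources used here do not give whether RNA was selected by its poly(A) tail or depleted of rRNA, so these shares describe the libraries and not the tissue.

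**Figure D4:**
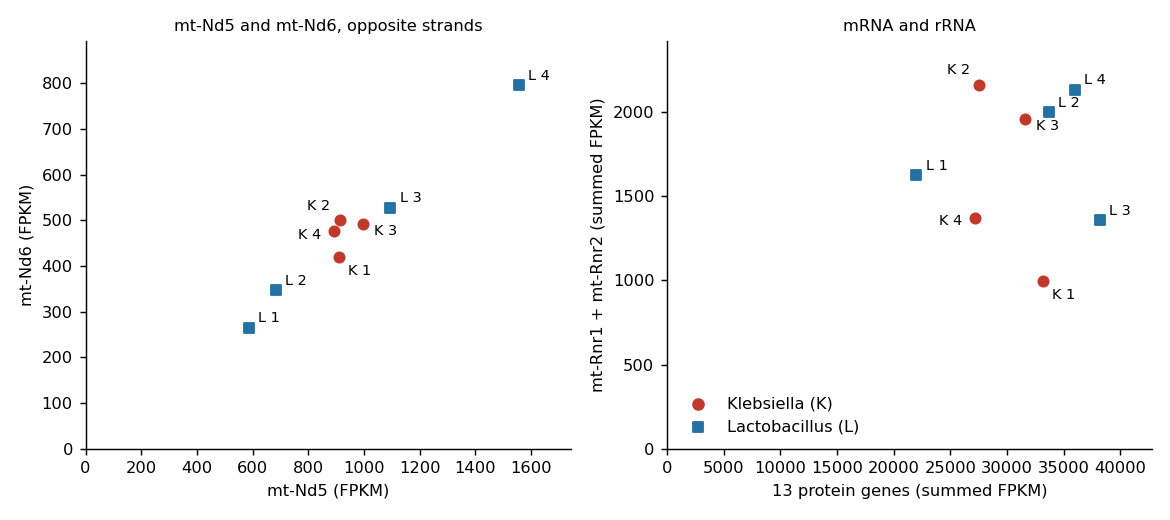
Left, FPKM of mt-Nd6 against mt-Nd5; right, summed FPKM of both rRNAs against that of the 13 protein genes; 1 point per library, circles Klebsiella (K 1 to K 4) and squares Lactobacillus (L 1 to L 4). mt-Nd6 follows mt-Nd5 from 265 and 588 FPKM to 796 and 1557 FPKM, while K 1 has the least rRNA (996 FPKM) at 33170 FPKM of mRNA.

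Of the 22 tRNA genes, 21 were listed at 0 in every library. A count of 0 allows a share of up to 1.90e-05% of the fragments in the library with the fewest fragments, by 3 counts and for counting error only. That limit is for fragments counted to the gene, not for fragments that carry its sequence. tRNA genes are 59 to 75 bases long, shorter than a read of 150 bases. They lie -3 to 32 bases from their neighbours (negative where genes overlap), so a read over a tRNA gene can also reach another annotated gene. How such reads were counted is not given, and their part in the values of 0 was not tested. The exception was mt-Tp, the tRNA for proline, a light strand gene and the last gene of the annotated chromosome (chrM:15356-15422, minus strand). It lies next to mt-Tt, and the stretch that follows it carries no annotated gene. It is shown in full, since it is shorter than the reads counted to it.
mt-Tp: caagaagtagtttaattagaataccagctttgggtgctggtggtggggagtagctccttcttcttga
mt-Tp was at 1220, 1261, 2006 and 1060 FPKM in Klebsiella libraries 1 to 4, from 1233 to 2192 fragments. In Lactobacillus libraries 1 to 4 it was at 1151, 1239, 2027 and 1169 FPKM, from 1235 to 2934 fragments. Klebsiella 3 and Lactobacillus 3 were thus high and the other 6 libraries close to each other, with 1 high library in each group. As a share of the summed mRNA FPKM, mt-Tp was 3.25% to 6.36%. None of its 15 pairs with the other genes passed by either coefficient (r -0.221 to 0.569, adjusted p at least 0.569 in exact permutation tests).

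The main comparison asked whether any mitochondrial gene differed between the recipients. Of the 16 genes, 0 were called by limma at an adjusted p under 0.05, where 0 of 16865 genes tested (0.0%) were called. At an unadjusted p under 0.05 there were 0 of 16 against 1024 genes (6.07%), and 0 of 16 had groups that did not overlap against 505 genes (2.99%). The 21 tRNA genes at 0 were not tested. The log2 differences, Klebsiella minus Lactobacillus on log2(FPKM + 0.5), ran from -0.30 for mt-Atp8 to 0.27 for mt-Nd3, with SEs of 0.18 to 0.37. All 16 lay within 1 SE of 0, 8 positive and 8 negative, with limma adjusted p of 0.84 to 0.999. Their median was -0.0043, beside -0.017 over all genes tested.

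By gene, mt-Co1 differed by -0.13 (SE 0.26) and mt-Cytb by -0.12 (SE 0.22). mt-Nd5 differed by 0.03 (SE 0.28), mt-Nd6 by 0.09 (SE 0.30), mt-Rnr1 by -0.17 (SE 0.24) and mt-Rnr2 by -0.18 (SE 0.27). The 5 copied genes were all positive, between 0.17 and 0.27, and without Klebsiella 4 the differences of mt-Co2, mt-Atp6 and mt-Co3 turned to -0.054, -0.045 and -0.052. Differences of this size lay within the spread between mice, which does not show that the groups were alike.

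**Figure D5:**
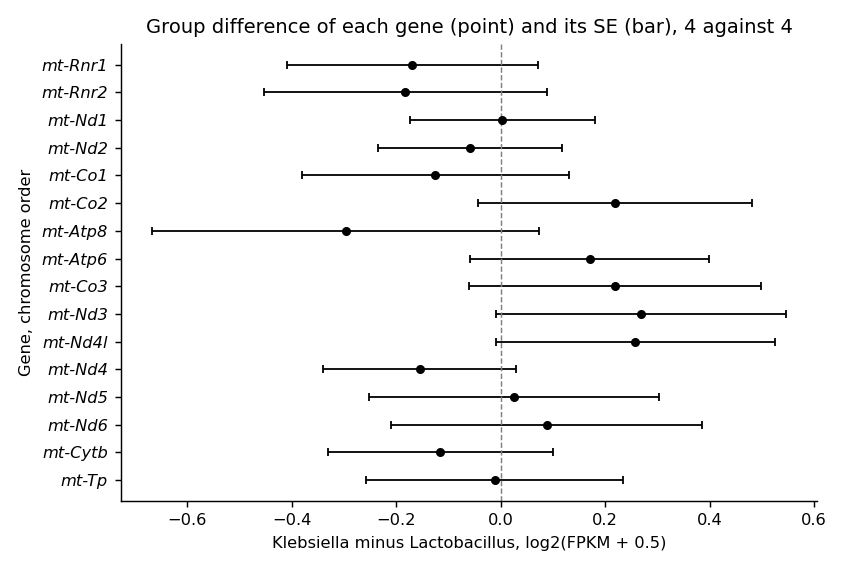
Klebsiella minus Lactobacillus difference on log2(FPKM + 0.5) for the 16 genes in chromosome order (points) with its SE from limma (bars), 4 against 4 libraries, and a dashed line at 0. Every bar reaches 0, from mt-Atp8 at -0.30 to mt-Nd3 at 0.27.

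Measures of the whole genome gave the same picture. The summed FPKM of the 13 protein genes was 33170, 27559, 31569 and 27169 in Klebsiella and 22012, 33689, 38234 and 36006 in Lactobacillus libraries. On the log2 scale it differed by -0.10 (exact permutation p = 0.714), by -0.27 without Lactobacillus 1 (exact permutation p = 0.0571) and by -0.0064 without Lactobacillus 3. These leave-outs are the extremes of the range, picked by their values, so the p without Lactobacillus 1 is no test of the groups. The rRNA to mRNA ratio differed by -0.08 (exact permutation p = 0.8) and the tRNA to mRNA ratio by 0.08 (exact permutation p = 0.714), in log2 units. The tRNA sum is mt-Tp alone, as the other 21 tRNA genes were at 0. The log2 ratio of 16S to 12S differed by -0.01 (exact permutation p = 0.857). The groups overlapped in all 7 such measures, and the adjusted p was 0.857 for each. The smallest p possible with 4 against 4 libraries is 0.0286.

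By complex, the mitochondrial subunits of complex IV summed to a median of 15481 FPKM (10157 to 18061) over the 8 libraries. The 7 subunits of complex I summed to 9340 FPKM (6616 to 11079), and complex III has only mt-Cytb. Both subunits of complex V summed to 84.0 FPKM (61.3 to 142), of which mt-Atp6 is a copied gene. Among nuclear subunits of complex V, Atp5b, the catalytic beta subunit, had a mean of 2262 FPKM over the 8 libraries. Atp5a1, the alpha subunit, had a mean of 1013 FPKM. The complex V sum above is a median, and it rests on a copied gene and on mt-Atp8, which had few fragments. It therefore gives no measure of how mitochondrial and nuclear subunits of complex V compare in level. The sums of complexes IV and I also include copied genes, whose FPKM is uncertain as a level of mitochondrial RNA.

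The nuclear subunits of the same complexes were then read from the same limma fit. Of 41 nuclear subunits tested, 0 were called, 36 had a negative and 5 a positive difference. Over all genes tested, 9035 of 16865 (53.6%) were negative. None of the 10 subunits of complex IV was positive (median -0.17), nor any of the 7 core subunits of complex I (median -0.10). For complex III 1 of 9 was positive (median -0.13), and for complex V 4 of 15 (median -0.10). Uqcr10, a small subunit of complex III, was at 781, 702, 779 and 809 FPKM in Klebsiella against 1009, 913, 880 and 867 FPKM in Lactobacillus libraries. Its groups did not overlap, but its limma adjusted p was 0.774 (log2 difference -0.26, SE 0.10). Cox6a1, a complex IV subunit, had a log2 difference of -0.23 (SE 0.16) and Cox4i1, another, of -0.15 (SE 0.13). Subunits of a complex vary together, so their signs are not independent of each other.

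Genes that copy, transcribe and process the mitochondrial genome gave 0 calls as well. Of 9 genes of mitochondrial transcription 4 were positive (median -0.07). Tfam, which packs the genome and starts transcription, had a mean of 33.8 FPKM over the 8 libraries and differed by 0.08 (SE 0.09). Tfb2m, the partner of the polymerase at promoters, differed by 0.01 (SE 0.08). Of 10 genes of genome maintenance 2 were positive (median -0.14). Ssbp1, the mitochondrial single-stranded DNA binding protein, was at 12.9, 14.4, 13.2 and 13.8 FPKM in Klebsiella and at 16.2, 18.6, 15.6 and 18.5 FPKM in Lactobacillus libraries. Its groups did not overlap, but its limma adjusted p was 0.774 (log2 difference -0.33, SE 0.10). Polg, the replicating polymerase, differed by 0.12 (SE 0.13). Among 22 genes of RNA processing and decay 12 were positive (median 0.01), among 19 of RNA modification 10 (median 0.02), and among 9 regulators of mitochondrial biogenesis 6 (median 0.10). Hsd17b10, a subunit of the enzyme that cuts the 5' ends of tRNAs, was at 75.4 to 104 FPKM and differed by -0.13 (SE 0.11). Esrra, a nuclear receptor that drives genes of oxidative metabolism, was at 188 to 271 FPKM and differed by -0.20 (SE 0.11).

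Last, the mitochondrial mRNA level was set against 31 other measures over the 8 libraries. It went with the percent of reads that mapped to several places, which was 6.90%, 6.20%, 6.75% and 6.27% in Klebsiella and 6.06%, 7.28%, 7.41% and 6.87% in Lactobacillus libraries. Pearson r was 0.91 (exact permutation p = 0.000843, adjusted p = 0.0261) and Spearman rho 0.905 (exact permutation p = 0.00456, adjusted p = 0.142). Without Lactobacillus 1 and Klebsiella 2, r was 0.875 (exact permutation p = 0.0278), which did not pass over the 31 measures (adjusted p = 0.861). From which genes those reads came was not tested. The other 30 measures did not pass (adjusted p at least 0.656 by Pearson, exact permutation tests). Among them, the nuclear subunit lists of the 4 complexes had r of -0.0923 to 0.0588 with the mitochondrial mRNA level, and the 11 cell type lists had r of -0.552 to 0.512.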

How the data were processed

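RNA of mouse intestine was measured in 8 libraries, grouped by the treatment label, with no batch named there. The submitters' processing notes name STAR 2.5.1b, HTSeq 0.6.0, CASAVA and DESeq2 1.10.1 without saying what each did. The sources used here do not give the genome build, the annotation, the strandedness or the treatment of reads with several mapping places. Deposited by the authors were FPKM per gene identifier, counts of reads per library and mapping class, and percent values for mapping and base quality.

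Symbols, positions and sequences came from GENCODE M21 (GRCm38); 49326 of 49585 identifiers matched. With its gene lengths, the deposited FPKM values of the 16 mitochondrial genes above 0 were whole numbers of fragments within 6.98e-10, so those lengths fit the values. Over all genes above 0 in at least 2 libraries 26963 were resolved to whole reads and 0 were not. The 2906 genes above 0 in 1 library were left out. Outside the mitochondrial genes these are the smallest whole numbers in the same ratios, so a factor common to all libraries is lost. Genes above 0 in few libraries can hardly fail this step, so the count of 0 is no check of it. Recovered reads made up 99.6% to 99.8% of the fragments behind FPKM, which were 83.3% to 87.9% of uniquely mapped first reads.

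FPKM are not counts, so limma 3.58.1 (R 4.3.3, mean-variance trend, two-sided, Benjamini-Hochberg) was run on log2(FPKM + 0.5) for the 16865 genes whose mean FPKM reached 0.5. Single values were compared by two-sided exact permutation tests over 70 assignments. Copies were found with BLAST 2.17.0 in transcripts of other genes, at 90% identity or more over at least 100 bases, and kept if the FPKM table lists them. The rest used scipy 1.17.1, pandas 2.3.3, numpy 2.4.6 and matplotlib 3.10.9 in Python 3.11.15. Some of the steps were run on simulated data, whose outcome is not given here and on which no result rests. The members, the gene lists and the pairs of genes were chosen with earlier results of these data known. The genes named are all mitochondrial genes above 0 and, of each other list, its calls or else up to 3 members with the highest mean FPKM. Alternatives were other pseudocounts, filters and scalings, voom on the recovered reads, leaving out each library in turn and blocking by mouse number.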

Additional observations from a re-analysis of the deposited data

Results flagged for a closer look

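In 50 groups of 4 libraries, 5 held a library whose gap to the nearest other, as a part of the group's range, exceeded Dixon's 95% critical value; chance gives about 1 in 20 groups. mt-Co1 in Lactobacillus 1 was at 9981 FPKM, and the other Lactobacillus libraries were at 17094 to 17811 FPKM. mt-Co2 in Klebsiella 4 was at 328 FPKM against 141 to 163 FPKM in the other Klebsiella libraries. The 5 copied genes stood at 2.59% of the 6 high heavy strand protein genes in Klebsiella 4 (1.08% to 1.16% in its group), and their 5 nuclear copies at 3.01% (0.905% to 1.02%). These 3 values share a library and, in part, reads. mt-Tp in Lactobacillus 3 was at 2027 FPKM, against 1151 to 1239 FPKM in its group, and Klebsiella 3 was at a like level of 2006 FPKM.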

How the results depend on the processing

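No mitochondrial gene passed the threshold under any of 272 alternative values (smallest limma adjusted p 0.432), and 0 genes of the whole table were called in any of the 18 fits. The direction of the mRNA level turned to 0.038 when each of the 13 genes weighed the same. The difference of mt-Tp turned to 0.0162, 0.0117 and 0.0142 under rescaling to a constant total, to a constant non-mitochondrial total and by median-of-ratios factors; these scalings moved the median of all genes by under 0.1. The count of relations that passed was 1, and 0 without the 2 libraries farthest from the median.

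With each library left out in turn, the share of fragments differed by -0.87 to -0.16 points and the log2 mRNA level by -0.272 to -0.0064. The log2 light to heavy strand ratio ran from 0.0378 to 0.411 and the rRNA to mRNA ratio from -0.29 to 0.18. The tRNA to mRNA ratio, whose tRNA part is mt-Tp alone, ran from -0.0803 to 0.188, and the 16S to 12S ratio from -0.0571 to 0.0634. Ranges of log2 differences were -0.30 to 0.00084 for mt-Rnr1, -0.361 to 0.0642 for mt-Rnr2, -0.147 to 0.0787 for mt-Nd1, -0.197 to 0.0226 for mt-Nd2, -0.0537 to 0.351 for mt-Co2, -0.578 to 0.014 for mt-Atp8, -0.0454 to 0.314 for mt-Atp6, -0.0519 to 0.392 for mt-Co3, -0.19 to 0.28 for mt-Nd5, -0.16 to 0.37 for mt-Nd6, -0.26 to 0.0062 for mt-Cytb, -0.20 to 0.18 for mt-Tp, -0.326 to -0.0477 for mt-Co1, 0.0378 to 0.51 for mt-Nd3, 0.0666 to 0.41 for mt-Nd4l and -0.318 to -0.0414 for mt-Nd4. The causes were not tested.

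Mouse numbers are shared by the groups but did not pair the libraries: same-numbered libraries had correlations of deviations of 0.189, -0.1, -0.0591 and -0.159, and only number 1 correlated best with itself. With the number as a replicate block limma called 0 genes (smallest adjusted p 0.797) and 1027 at an unadjusted p under 0.05, against 1024 without it.

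Depth limits mt-Atp8, with 14 fragments in 2 libraries. For the 21 tRNA genes at 0 the cause was not tested. In the 5 copied genes, reads within a stretch identical to the annotated copy cannot be assigned by sequence. What the nuclear genome holds beside the annotated copies was not analysed.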
